A study of Mus musculus with 8 samples.

Results

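The Trbv genes are the variable segments of the T cell receptor beta chain, and every gene symbol that starts with Trbv was taken as a member, which gave 35 of the 32285 genes in the expression tables. Each T cell barcode was given the Trbv gene that held most of its unique molecular identifiers (UMIs, counts of single captured transcripts). Usage is the share of barcodes given to each gene. A T barcode had at least 2 UMIs over Cd3d, Cd3e and Cd3g, the signalling chains of the receptor, at least 500 UMIs and 300 genes, and at most 10% mitochondrial UMIs. Of 16216 such barcodes, 15024 received 1 Trbv gene.

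The cells were CD45+ leukocytes sorted with an antibody to CD45.2 from the submandibular gland, a major salivary gland, and from its draining lymph nodes. Glands and nodes were taken from 4 mice called SS and 4 controls, all aged about 12 weeks, and the labels neither spell out SS nor name an allele or strain. The 4 expression samples, 1 for each genotype and tissue, arrived as libraries C1 to C4, which no label ties to a genotype or a tissue, and the 4 receptor libraries were not analysed here. Each library is therefore described by itself, with no replicate and no test, and the 95% intervals are exact Clopper-Pearson intervals that cover counting error only. A share of 0 is also given with the limit that 3 counts would set.

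In the thymus a developing T cell joins 1 V segment to a D and a J segment, so that a mature cell usually makes 1 beta chain. The V segment encodes the part of the beta chain that contacts the major histocompatibility molecule, and the joint with D and J forms the loop that mostly contacts the peptide. Cells restricted by class I molecules keep the co-receptor CD8 and those restricted by class II keep CD4, and the progeny of 1 cell share their V segments. Superantigens bind the beta chain through its V segment and can act on all cells that use it.

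All 35 members lie on chromosome 6 of the mouse genome (GRCm38.p6), from Trbv1 at chr6:40891296-40891885 to Trbv31 at chr6:41557693-41558371. The RefSeq table lists 22 as V segments and 13 as V segment pseudogenes, which cannot give a working chain. UMIs were found for 27 members, and the 8 at 0 in T barcodes were all listed as pseudogenes: Trbv6, Trbv7, Trbv8, Trbv11, Trbv18, Trbv25, Trbv27 and Trbv28. A total of 19 members were assigned in at least 100 barcodes. Trbv21, listed as a V segment, had 41 UMIs and no assigned barcode.

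Trbv29, older name V beta 7, was the exception among the listed pseudogenes. It lies at chr6:41271403-41271881 and held 6150 UMIs, with 58, 176, 223 and 80 assigned barcodes in C1 to C4. Its 10.4 UMIs per assigned barcode lay near those of Trbv13-3, with 10.0, and Trbv14, with 10.5. The other 12 listed pseudogenes together held 65 UMIs and 1 assigned barcode, of Trbv22. Trbv29 thus lay in the range of the listed V segments and apart from the other listed pseudogenes.

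A Trbv gene was assigned in nearly all T barcodes with a co-receptor. Among Cd4-only T barcodes, which hold a Cd4 UMI and none of Cd8a or Cd8b1, the share was 94.8%, 95.4%, 96.6% and 96.4% in C1 to C4. Among Cd8-only T barcodes, which hold a Cd8a or Cd8b1 UMI and none of Cd4, it was 92.1%, 95.4%, 96.0% and 95.2%. By the same rule 6.90%, 15.8%, 0.434% and 0.0539% of B barcodes would be Cd4-only, and 3.01%, 4.58% and 6.85% of macrophage barcodes in C1 to C3. The Cd8-only rule took at most 1.16% of B and 2.75% of macrophage barcodes. With classes set from 2 co-receptor UMIs, Trbv12-1, Trbv12-2 and Trbv29 were still higher in Cd8-only and Trbv2 in Cd4-only barcodes in each library. Barcodes of cells that do not rearrange the beta locus, taken without a Cd3 UMI, gave the background. This choice leaves out barcodes that caught Cd3 transcripts of T cells, so the background in T barcodes may be higher, which was not tested. Of B cell barcodes without a Cd3 UMI, 1.59% (0.797 to 2.83%) in C3 and 1.18% (0.744 to 1.79%) in C4 held a Trbv UMI, at median depths of 5285 and 3895 UMIs against 8312 and 6178 in T barcodes. In C1 and C2 the share was 0 of 116 and 0 of 38 B barcodes, with exact upper limits of 3.13% and 9.25%, and 2.59% and 7.89% for 3 counts. Macrophage barcodes of C1, with 2824 the largest background set, held a Trbv UMI in 1.17% (0.806 to 1.64%).

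**Figure D1:**
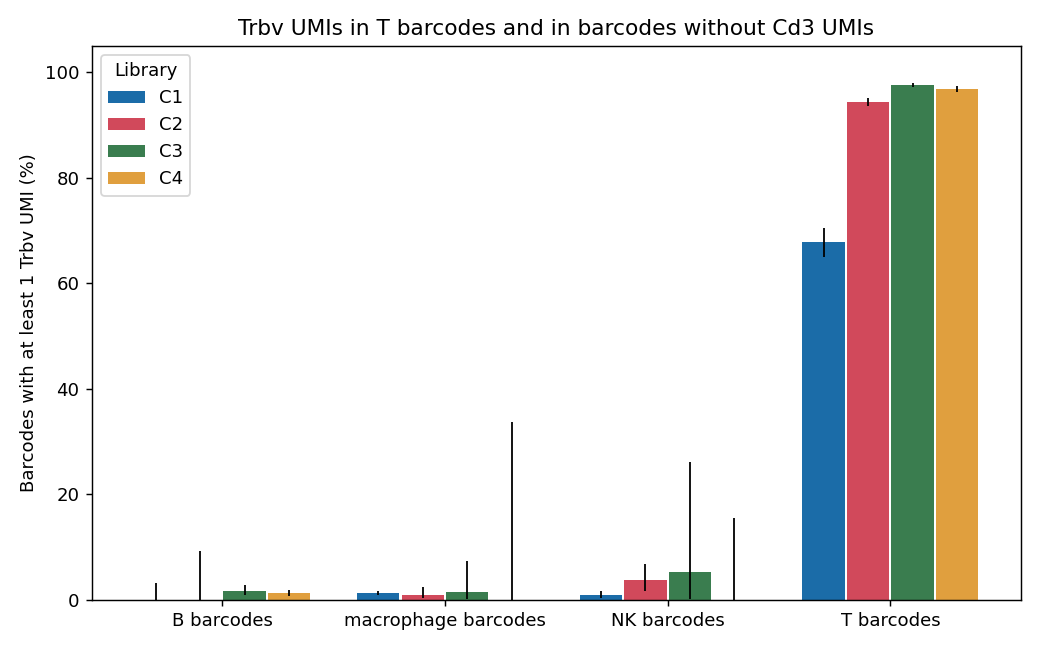
Share of barcodes with at least 1 Trbv UMI (%, vertical axis) among B, macrophage and NK barcodes without a Cd3 UMI and among T barcodes, for libraries C1 to C4; bars are shares and lines exact 95% intervals. T barcodes lie at 67.8% in C1 and between 94.4 and 97.7% in C2 to C4, and no background share passes 5.26%, the value of 1 of 19 NK barcodes in C3.

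C1 stood apart in T barcodes as a whole, of which 66.1% (63.2 to 68.8%) were assigned, against 92.9% (92.0 to 93.7%), 95.7% (95.2 to 96.1%) and 94.4% (93.6 to 95.1%) in C2 to C4. Barcodes with neither co-receptor made up 44.8% of the T barcodes in C1 and 6.69 to 20.7% in the other libraries, and 32.5% of them were assigned in C1. Of the 367 C1 T barcodes with no Trbv UMI, 72.2% held a UMI of Ncr1, a receptor gene of natural killer cells, 17.7% one of Trdc, the delta chain constant region, and 9.26% one of Trac, the alpha chain constant region. In assigned C1 barcodes these shares were 10.9%, 2.79% and 66.0%. A UMI of Trbc1 or Trbc2 was found in 58.3% of those without a Trbv UMI and in 82.5% of the assigned ones. The gamma chain constant genes were at 12.5% and 13.1%, and at least 2 UMIs of the macrophage genes C1qa, C1qb and C1qc at 22.3% and 18.5%. Without barcodes that hold an Ncr1 UMI, an alternative chosen after seeing the data, the assigned share in C1 was 85.2%. In C4 40.8% of the 125 T barcodes without a Trbv UMI held a Trdc UMI.

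The other genes of the beta locus, and genes that act in its rearrangement, were covered unevenly. UMIs of the constant region gene Trbc2 were found in 67.8 to 88.8% of T barcodes and those of Trbc1 in 28.6 to 40.0%. Any of the 14 Trbj genes had a UMI in 2.28 to 5.50% only, so combinations of V with J were not counted. Trbd1 and Trbd2, the D segments, and Rag1 and Rag2, the recombinase genes, had 0 UMIs in the T barcodes of the 4 libraries. Dntt, which adds bases at the joints, was found in 107 T barcodes of C4 (2.74%), 15 of C3 and none of C1 and C2.

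Trbv13-2, older name V beta 8.2, at chr6:41121396-41121832, was the most used gene by its median over libraries. It held 7.04%, 10.5%, 10.3% and 10.0% of assigned T barcodes in C1 to C4. Trbv3 held 6.91%, 10.3%, 8.13% and 7.31% in the same order, Trbv19 held 8.76%, 5.63%, 6.76% and 8.34%, and Trbv5 held 8.90%, 4.77%, 5.78% and 7.64%. Neighbours in this order did not separate in each library: the intervals of Trbv13-2 and Trbv3 overlapped in C1 and C2. Next came Trbv13-3, Trbv1, Trbv16 and Trbv13-1, with medians between 5.65 and 6.02%. The 3 expressed genes of the Trbv13 family, among which reads may be shared or lost, made up 22.4%, 19.4%, 21.3% and 22.3% together.

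The rarest members with over 20 assigned barcodes were Trbv23, Trbv30 and Trbv24. Trbv23 ranged from 0.296 to 0.734% over the libraries, Trbv30 from 0.237 to 0.706% and Trbv24 from 0.0970 to 0.531%. The chance that 2 barcodes drawn from a class carry the same Trbv gene measures how even usage is. It was 6.90%, 7.36%, 6.82% and 6.84% in Cd4-only barcodes of C1 to C4. In Cd8-only barcodes it was 7.70%, 6.04%, 6.17% and 5.77%, so the value of the Cd8-only class was the lower one in C2 to C4 and the higher one in C1.

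The leading gene differed with library and class. In Cd8-only barcodes Trbv29 led in C1 with 14.3% (10.3 to 19.2%), Trbv3 in C2 with 9.95% (8.74 to 11.3%), and Trbv13-2 in C3 with 10.0% (9.23 to 10.9%) and in C4 with 9.12% (7.47 to 11.0%). In Cd4-only barcodes Trbv19 led in C1 with 10.6% (7.39 to 14.5%), Trbv13-2 in C2 with 15.1% (12.6 to 17.8%) and in C4 with 10.2% (8.78 to 11.8%), and Trbv5 in C3 with 11.0% (9.29 to 12.8%). The intervals of the first and second gene overlapped in each class except Cd4-only barcodes of C2.

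**Figure D2:**
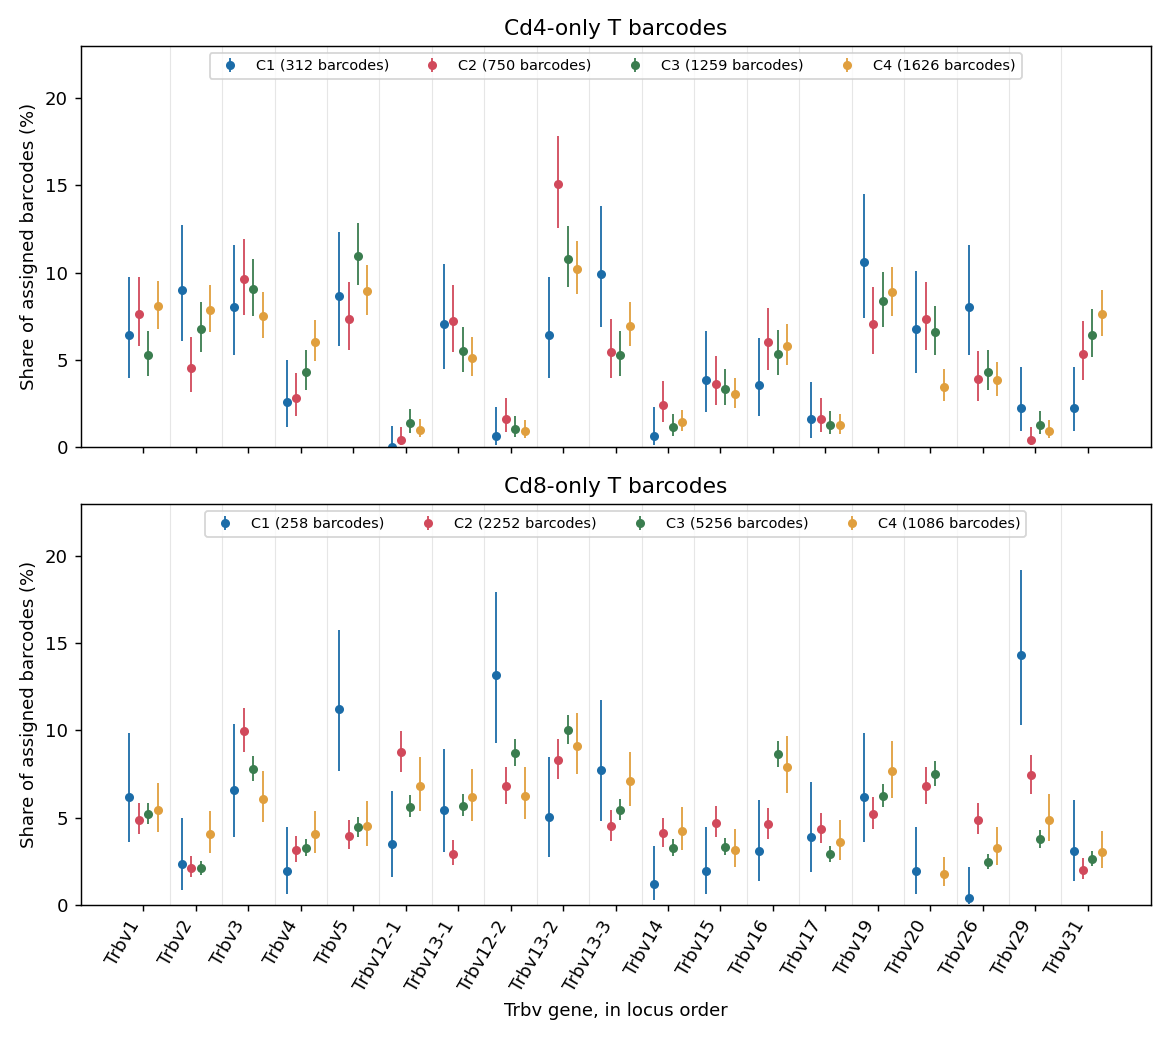
Share of assigned barcodes (%, vertical axis) given to each of the 19 Trbv genes with at least 100 assigned barcodes (horizontal axis, in locus order), for Cd4-only (top) and Cd8-only (bottom) T barcodes of C1 to C4, with exact 95% intervals. Trbv12-1, Trbv12-2 and Trbv29 lie near the bottom of the Cd4-only panel in each library and higher in the Cd8-only panel, where Trbv29 of C1 reaches 14.3%.

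The clearest pattern shared by the libraries was the split of V genes between the co-receptor classes. Trbv12-1, Trbv12-2 and Trbv29 were higher in Cd8-only barcodes and Trbv2 was higher in Cd4-only barcodes, each in 4 of 4 libraries and with intervals that did not overlap in any of them. Trbv17 and Trbv14 were also higher in Cd8-only barcodes in 4 of 4 libraries, with intervals apart in 3 and 2 of them. Trbv1, Trbv13-2 and Trbv19 were higher in Cd4-only barcodes in 4 of 4, with intervals that overlapped in at least 3. The other 10 of the 19 well-covered genes pointed both ways.

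Intervals did not overlap for 5, 9, 10 and 8 of the 19 genes in C1 to C4, and 12 of the 19 did so in at least 1 library. For background, levels of all genes in UMIs per 1000000 were compared between the classes at a 1.5-fold difference. In C1 4.46% of the 7692 genes tested were higher in Cd8-only barcodes and 12.9% in Cd4-only barcodes, and 6 and 6 of the 19 tested members were. In C2 the shares were 5.37% and 10.5% over all genes, and 6 and 9 of 21 members. In C3 they were 8.70% and 30.8%, and 2 and 16 of 22 members. In C4 they were 4.75% and 8.50%, and 5 and 10 of 22 members. By this rule on levels the members called were above the share over all genes in both directions in each library except C3. There 2 of 22 in the Cd8-only direction lay near 8.70%. The interval counts above are on shares of barcodes and have no such share over all genes. The level rule can also rest on few barcodes: in C1 it called Trbv14 with 3 Cd8-only and 2 Cd4-only barcodes, and Trbv31 with 8 and 7. The Cd4-only barcodes of C3 had a median depth of 5129 UMIs against 8958 in Cd8-only ones, and the part of that gap in the levels per 1000000 was not tested.

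Trbv12-2, older name V beta 5.1, at chr6:41118864-41119364, was carried by 13.2% (9.30 to 17.9%), 6.79% (5.79 to 7.91%), 8.71% (7.96 to 9.51%) and 6.26% (4.89 to 7.87%) of Cd8-only barcodes in C1 to C4. In Cd4-only barcodes it was carried by 0.641%, 1.60%, 1.03% and 0.923%, with no upper limit above 2.78%. Trbv12-1, V beta 5.2, at chr6:41113567-41114067, was carried by 3.49%, 8.75%, 5.61% and 6.81% of Cd8-only barcodes. In Cd4-only barcodes it was carried by 0 of 312 in C1, with an exact upper limit of 1.18% and 0.962% for 3 counts, and by 0.400%, 1.35% and 0.984% in C2 to C4. These genes belong to 1 family, and how reads that match both were counted is not known here, so their sum is given too. The sum was 16.7%, 15.5%, 14.3% and 13.1% in Cd8-only barcodes of C1 to C4 and 0.641%, 2.00%, 2.38% and 1.91% in Cd4-only barcodes. In Cd8-only barcodes the sum varied less between libraries than either gene and all 4 of its intervals overlapped, while in Cd4-only barcodes it spanned more percentage points than either gene.

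Trbv29 held 14.3%, 7.42%, 3.75% and 4.88% of Cd8-only barcodes in C1 to C4 and 2.24%, 0.400%, 1.27% and 0.923% of Cd4-only barcodes. The Cd4-only value of C2 rests on 3 barcodes of 750. Its Cd8-only share was highest in C1, where the interval of 10.3 to 19.2% lay above those of the other libraries, and C2, with 6.37 to 8.58%, lay above C3, with 3.25 to 4.30%. Trbv17, V beta 9, held 3.88%, 4.35%, 2.89% and 3.59% of Cd8-only barcodes against 1.60%, 1.60%, 1.27% and 1.23% of Cd4-only ones. Trbv14, V beta 13, held 1.16%, 4.09%, 3.27% and 4.24% against 0.641%, 2.40%, 1.11% and 1.41%, with 3 and 2 barcodes in C1.

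On the other side, Trbv2, V beta 4, at chr6:41047556-41047995, held 8.97% (6.05 to 12.7%), 4.53% (3.16 to 6.28%), 6.75% (5.43 to 8.28%) and 7.87% (6.61 to 9.29%) of Cd4-only barcodes in C1 to C4. It held 2.33%, 2.13%, 2.09% and 4.05% of Cd8-only barcodes. Trbv19, V beta 6, held 10.6%, 7.07%, 8.34% and 8.86% of Cd4-only barcodes against 6.20%, 5.20%, 6.26% and 7.64% of Cd8-only ones, and its intervals overlapped in each library. Trbv13-2 differed in C2 alone beyond its intervals, at 15.1% of Cd4-only against 8.30% (7.20 to 9.52%) of Cd8-only barcodes. Trbv1 differed by 0.05 to 2.72 percentage points with overlapping intervals.

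Trbv5 and Trbv31 were higher in Cd4-only barcodes in C2 to C4 and higher in Cd8-only barcodes in C1, there with overlapping intervals. Trbv5, V beta 1, held 7.33%, 11.0% and 8.92% of Cd4-only barcodes in C2 to C4 against 3.95%, 4.43% and 4.51% of Cd8-only ones, with intervals apart. In C1 it was 8.65% of Cd4-only against 11.2% of Cd8-only barcodes, the other direction with overlapping intervals. Trbv31, V beta 14, the gene at the far end of the locus, held 5.33%, 6.43% and 7.63% against 2.00%, 2.63% and 3.04% in C2 to C4. In C1 it held 2.24% against 3.10%, which rests on 7 Cd4-only and 8 Cd8-only barcodes. The C1 direction of Trbv5 turned when barcodes of Trbv and alpha chain V gene combinations held by at least 5 barcodes were left out, an alternative chosen after seeing the data: Trbv5 was 3.08 percentage points higher in Cd4-only barcodes of C1 as well, while Trbv31 stayed 0.96 points higher in Cd8-only ones. With barcodes of a single Trbv gene both C1 directions turned, to 2.57 points higher in Cd4-only barcodes for Trbv5 and 0.54 for Trbv31, so that all 4 libraries then pointed one way.

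**Figure D3:**
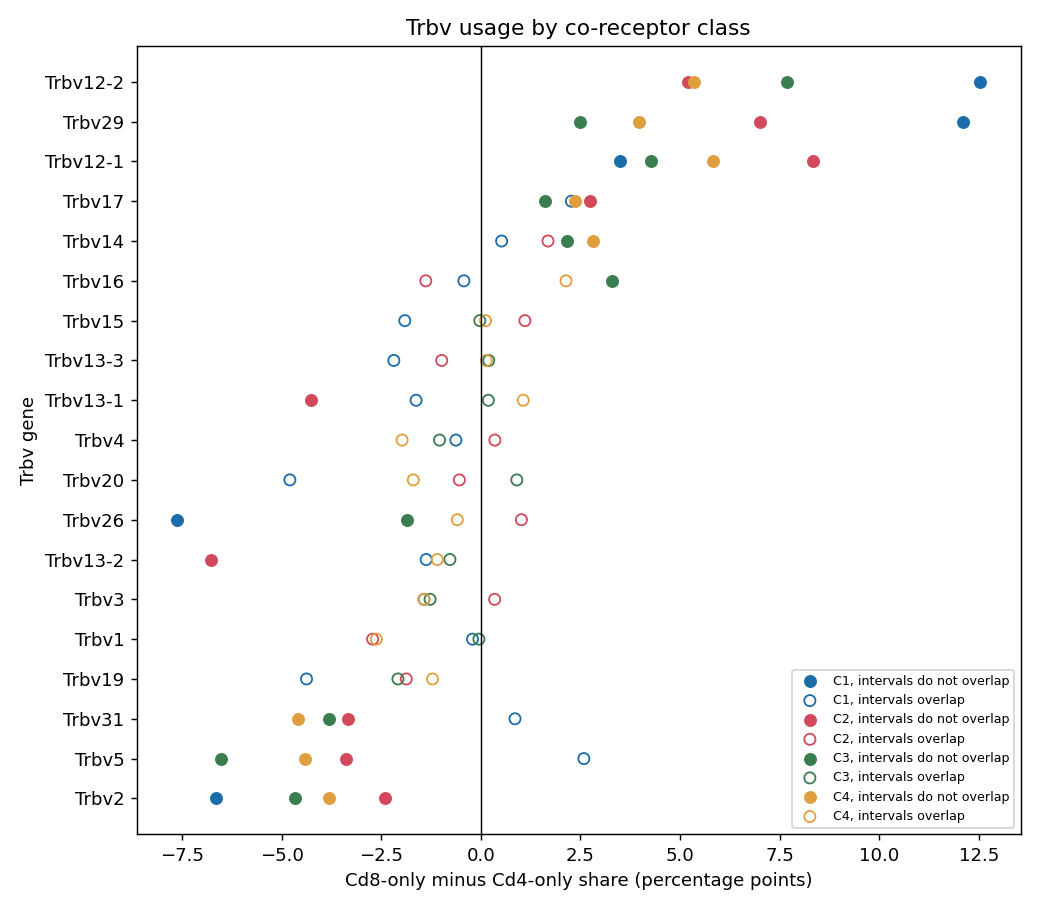
Cd8-only minus Cd4-only share of assigned barcodes (percentage points, horizontal axis) for the 19 well-covered Trbv genes, ordered by the median over libraries; each point is 1 library, filled where the 2 intervals do not overlap. Trbv12-1, Trbv12-2 and Trbv29 have 4 filled points above 0 and Trbv2 has 4 below 0, while the points of Trbv5 and Trbv31 in C1 lie on the other side of 0 from those of C2 to C4.

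Between libraries, levels in UMIs per 1000000 differed at least 2-fold from lowest to highest for 17 of 22 members tested and for 32.4% of all genes tested. The median ratio was 3.35 over the members and 1.58 over all genes. C1 was the lowest library for 20 of the 22 members, and for 24.7% of all genes, and Trbv UMIs together made up 736 per 1000000 there against 1229 to 1796 in C2 to C4. Over C2 to C4 alone, an alternative chosen after seeing the data, 10 of 22 members and 25.5% of all genes differed at least 2-fold, with median ratios of 1.92 and 1.44. The part in these levels of the C1 T barcodes without a Trbv UMI was not tested. In shares of Cd8-only barcodes the widest spread was that of Trbv26, V beta 3, with 1 of 258 barcodes in C1 (0.388%, 0.0098 to 2.14%) and 4.88% (4.03 to 5.86%), 2.44% (2.04 to 2.89%) and 3.22% (2.25 to 4.45%) in C2 to C4. In Cd4-only barcodes the same gene was highest in C1, at 8.01% (5.25 to 11.6%), against 3.81 to 4.29% in the other libraries. Trbv20, V beta 15, held 6.79% (5.79 to 7.91%) of Cd8-only barcodes in C2 and 7.50% (6.80 to 8.24%) in C3, but 1.94% (0.632 to 4.46%) in C1 and 1.75% (1.06 to 2.72%) in C4. C2 and C3 thus lay above C1 and C4 for this gene. In Cd4-only barcodes Trbv20 was lowest in C4 as well, with 3.44% against 6.59 to 7.33%.

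Among Cd4-only barcodes, Trbv31 was lowest in C1 with 2.24% (0.907 to 4.57%) and reached 7.63% (6.38 to 9.02%) in C4. Trbv4, V beta 10, held 2.56%, 2.80%, 4.29% and 6.03% in C1 to C4, and the C4 interval of 4.92 to 7.30% lay above that of C2, 1.74 to 4.25%. Trbv13-2 was highest in C2, where 15.1% lay above the upper limits of C1, 9.73%, and C4, 11.8%.

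To see whether high shares came from many receptors or few, each barcode was also given its leading Trav gene, the V segment of the alpha chain, which 51.8% of T barcodes had in C1 and 74.8 to 76.6% in C2 to C4. A Trbv and Trav combination is not a clone, since the joints are not seen. The chance that 2 barcodes share a combination was set over the product of the chances that they share the Trbv and the Trav gene, which is 1 where the genes combine freely. In C4 this ratio was 0.986 in Cd4-only and 1.02 in Cd8-only barcodes. In C3 it was 1.13 and 1.64, in C2 4.19 and 4.50, and in C1 4.12 and 3.59. Repeated combinations were thus common in C1 and C2, present in the Cd8-only barcodes of C3, and at the level of free combination in C4.

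In C2 the leading combination of Cd4-only barcodes was Trbv13-2 with Trav9-1, in 47 of 618 barcodes with both genes (7.61%, 5.64 to 9.99%). It held 48.5% of the 97 Cd4-only Trbv13-2 barcodes with a Trav gene there. In any other library it held at most 0.439% of Cd4-only barcodes with both genes. Of the 47, 97.9% held at least 5 UMIs of Ccl5, a chemokine of effector T cells, 97.9% held Gzmk, a granule protease, 87.2% held Pdcd1, the inhibitory receptor PD-1, and none held Ccr7, the receptor that guides cells into lymph nodes. Over all 618 barcodes those shares were 62.1%, 62.0%, 59.7% and 7.93%. Next came Trbv16 with Trav8d-1 in 18 barcodes and Trbv13-3 with Trav4-4-dv10 in 11, tied with Trbv3 and Trav7-5.

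In Cd8-only barcodes of C2 the leading combinations were Trbv26 with Trav3-1 in 62 of 1762 (3.52%, 2.71 to 4.49%), Trbv20 with Trav12-2 in 51, Trbv12-1 with Trav7-4 in 50 and Trbv29 with Trav12-1 in 49. The first was found in no Cd8-only or Cd4-only barcode of C1, C3 or C4. It made up 62.6% of Trbv26 barcodes with a Trav gene. Pdcd1 was found in 100%, 94.1%, 98.0% and 98.0% of the 4 combinations and Ccr7 in none, against 75.7% and 2.16% of all 1762 barcodes. Each of these 4 Trbv genes thus had 32.1 to 62.6% of its barcodes with a Trav gene in 1 combination.

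C3 had a repeated Trbv20. Trbv20 with Trav13-2 was carried by 117 of 3973 Cd8-only barcodes (2.94%, 2.44 to 3.52%), Trbv20 with Trav9-2 by 48 and Trbv20 with Trav8-2 by 28. Trbv20 with Trav13-2 was at 5 of 1762 in C2 and at 0 of 194 in C1 and 0 of 798 in C4. Of the 117 barcodes, 98.3% held at least 5 Ccl5 UMIs and 80.3% a Ccr7 UMI, while 0.855% held Pdcd1. Over all 3973 barcodes the shares were 91.6%, 69.5% and 4.30%, so Ccr7 was common and Pdcd1 rare in the whole Cd8-only class of C3, and the reverse in that of C2.

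In C1, with far fewer T barcodes, Trbv13-3 with Trav6d-4 led the Cd4-only class with 14 of 228 (6.14%, 3.40 to 10.1%), followed by Trbv19 with Trav6-5 in 10 and Trbv1 with Trav9-2 in 8. Trbv5 with Trav1 led the Cd8-only class with 13 of 194 (6.70%, 3.62 to 11.2%), and was 68.4% of its Trbv5 barcodes with a Trav gene. Trbv1 with Trav16n and Trbv12-2 with Trav13-1 followed with 7 each. Trbv29, the leading gene of that class, was spread: its 27 barcodes with a Trav gene used 17 of them and the leading one, Trav13-1, had 4. In C4 the leading combinations of the Cd4-only class were Trbv13-2 and Trbv5, each with Trav6-7-dv9, in 11 of 1270 barcodes each, and those of the Cd8-only class had 7 of 798.

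**Figure D4:**
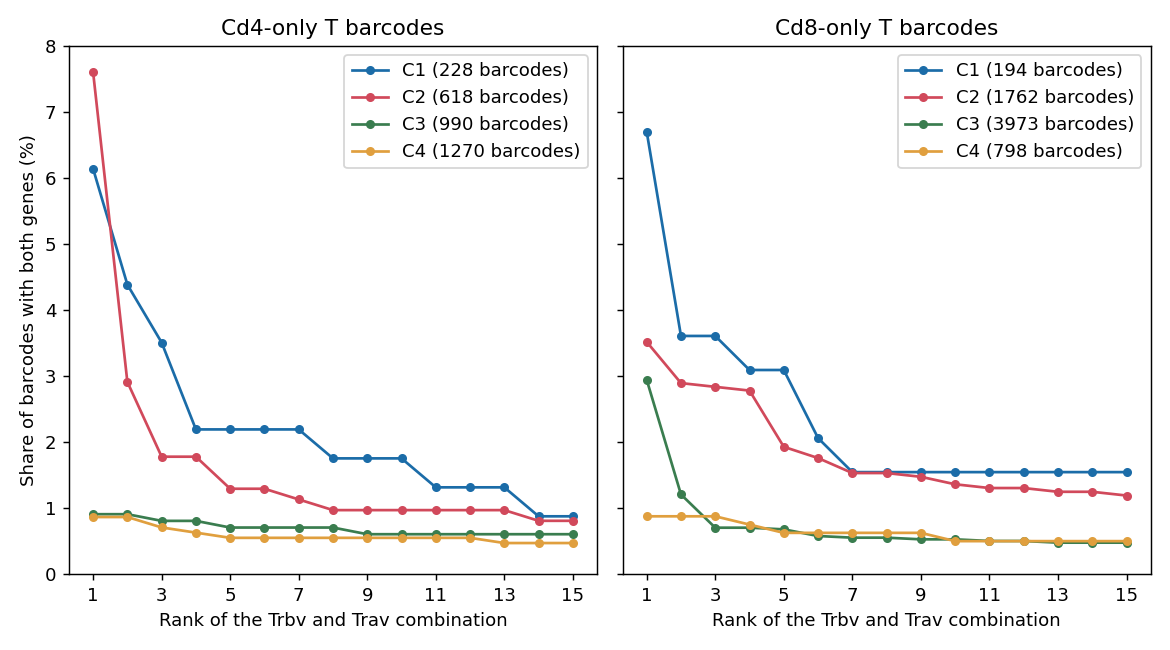
Share of barcodes with both a Trbv and a Trav gene (%, vertical axis) held by each of the 15 most frequent combinations (horizontal axis, by rank) in Cd4-only (left) and Cd8-only (right) T barcodes of C1 to C4. C1 and C2 start at 6.14 and 7.61% on the left and at 6.70 and 3.52% on the right, while C4 stays at or under 0.877% in both panels; in small classes a single barcode is a larger share.

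The split of Trbv12-2 and Trbv29 between co-receptor classes was also present without these repeats. Counting each combination once per class and library, an alternative chosen after seeing the data, Trbv12-2 stayed higher in Cd8-only barcodes by 10.6, 2.41, 5.07 and 4.23 percentage points in C1 to C4 and Trbv29 by 11.8, 3.90, 2.99 and 4.42. Of the 10 genes with mixed directions, Trbv3, Trbv4, Trbv5, Trbv20 and Trbv31 were then higher in Cd4-only barcodes in 4 of 4 libraries, and the other 5 stayed mixed. Trbv20, 0.90 points higher in Cd8-only barcodes of C3, was 2.10 points higher in Cd4-only ones. Trbv26, 1.02 points higher in Cd8-only barcodes of C2, was 1.87 points higher in Cd4-only ones there, but 0.27 points higher in Cd8-only ones of C3. Trbv1 and Trbv19 no longer had 1 direction, with 0.46 points more in Cd8-only barcodes of C1 and 0.26 of C4. Such a count gives each gene its number of Trav partners, which can level off in a larger class. In C3 3973 Cd8-only barcodes held 1035 combinations and 990 Cd4-only barcodes held 541. In C4 798 Cd8-only barcodes held 530 and 1270 Cd4-only barcodes held 645. The part of class size in these directions was not tested.

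A second Trbv gene with at least 2 UMIs was found in 14.5%, 16.5%, 17.3% and 20.0% of assigned barcodes in C1 to C4. The leading gene still held 89.8 to 91.7% of the Trbv UMIs. Median depth was 6383, 6361, 9910 and 6588 UMIs in C1 to C4 in barcodes with such a second gene. It was lower, at 5893, 4810, 8156 and 6083, in barcodes with no UMI of another Trbv gene. Barcodes in between, with 1 UMI of another Trbv gene, were in neither set. Doublets, barcodes with more than 1 cell, were not removed, and the part of doublets, free RNA, close copies and a second rearranged allele was not tested. Genes of the Trbv12 and Trbv13 families, which lie side by side in the locus, gave many of these pairs: Trbv13-2 was second in 104 barcodes given to Trbv13-3 and Trbv12-2 was second in 87 given to Trbv13-2. Trbv13-2 was the strongest second gene in 11.8 to 13.9% of the barcodes given to Trbv14 in C2 to C4 and in 0 of 14 in C1. Counted wherever it had at least 2 UMIs, a wider measure, it was found in 2.14 to 4.41% of all barcodes given to other genes in C1 to C4.

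Some second genes came with a repeated combination, and these cases were singled out after their values were seen. In C2, Trbv4 was second in 28 Trbv13-2 barcodes (7.93%), against 2 of 53 in C1 (3.77%), 0.671% in C3 and 0.813% in C4. Among Cd4-only Trbv13-2 barcodes of C2, Trbv4 was second in 19 of 47 with Trav9-1 (40.4%, 26.4 to 55.7%) and in 1 of 50 with another Trav gene (2.00%, 0.0506 to 10.6%). In C1, Trbv31 was second in 7 of 13 Cd8-only barcodes with Trbv5 and Trav1 (53.8%, 25.1 to 80.8%). It was second in 0 of 6 Trbv5 barcodes with another Trav gene, with an exact upper limit of 45.9%, so the C1 intervals overlapped. In both cases the same pair of Trbv genes recurred in barcodes that also shared a Trav gene, with medians of 9 and 2 UMIs for the first and second gene in C2, and 8 and 3 in C1.

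The amount of Trbv transcript per barcode differed between genes. Trbv15, V beta 12, gave 20.7 UMIs per assigned barcode and Trbv17 gave 20.5, followed by Trbv1 with 13.5. Trbv2 gave 4.05, Trbv30 gave 6.05 and Trbv12-1 gave 6.48, the lowest among members with at least 50 assigned barcodes. Per kilobase of the gene's span the order at the ends held, with 46.3 for Trbv15 and 44.0 for Trbv17 against 9.20 for Trbv2 and 9.84 for Trbv30, while Trbv1 dropped to 22.9, below the 29.1 of Trbv3. The medians of Trbv15 were 14.5, 25, 15 and 18 UMIs in C1 to C4 and those of Trbv2 were 2, 3, 3 and 3. Usage counted in UMIs ranked genes otherwise: Trbv13-2 then held 7.59% in Cd8-only barcodes of C3, behind Trbv16, against 10.0% by barcodes.

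Cd8-only barcodes were also divided by state. Ccl5-type barcodes held at least 5 Ccl5 UMIs and no Ccr7, and Ccr7-type barcodes held Ccr7 and no Ccl5. Ccl5 at that level was found in 3.45%, 5.26%, 0.145% and 0.162% of B barcodes in C1 to C4, and in 5.98% and 9.38% of macrophage barcodes in C1 and C2. A Ccr7 UMI was found in 43.1%, 13.2%, 32.0% and 51.2% of B barcodes in C1 to C4, and B cells express Ccr7. Ccl5-type made up 86.4% of the Cd8-only class in C1 and 93.9% in C2, where 17 and 7 Ccr7-type barcodes were too few to compare. In C4 the class was 65.3% Ccr7-type, with 62 assigned Ccl5-type barcodes. In C3 it was 30.4% Ccl5-type and 4.15% Ccr7-type, and 3254 of its 5256 assigned barcodes held both genes.

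Trbv20 differed most between the states of C3, with 19.5% (14.5 to 25.3%) of 221 Ccr7-type barcodes against 5.83% (4.73 to 7.10%) of 1578 Ccl5-type barcodes. Trbv13-2 went the other way, with 4.98% (2.51 to 8.73%) against 11.0% (9.52 to 12.7%), and so did Trbv16, V beta 11, with 3.62% (1.58 to 7.01%) against 8.37% (7.05 to 9.84%). The Trbv20 barcodes carried different Trav genes in the states. Of the 35 Ccr7-type ones with a Trav gene, 19 had Trav9-2 and 12 had Trav8-2. Of the 68 Ccl5-type ones, 23 had Trav13-2, and of the 190 with both Ccl5 and Ccr7, 92 had Trav13-2. Combinations held by at least 5 barcodes of a state were then left out, an alternative chosen after seeing the data. Trbv20 then made up 6.32% of Ccr7-type and 4.98% of Ccl5-type barcodes. The cut-off was the same for 221 and 1578 barcodes and took out the Trav9-2 and Trav8-2 barcodes just named. These shares therefore do not show whether the states differ apart from repeats. In C4 Trbv20 held 1.69% of 709 Ccr7-type barcodes and 1 of 62 Ccl5-type ones, and no member had intervals apart between the states.

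**Figure D5:**
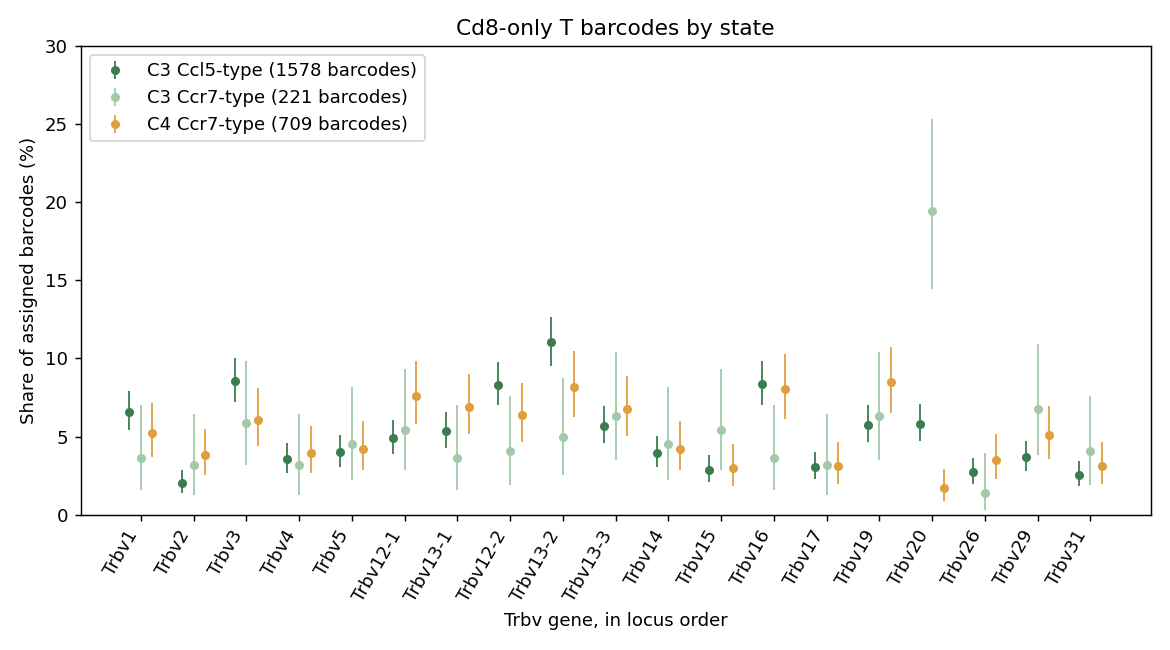
Share of assigned Cd8-only barcodes (%, vertical axis) given to each of the 19 well-covered Trbv genes (horizontal axis, in locus order), in Ccl5-type and Ccr7-type barcodes of C3 and Ccr7-type barcodes of C4, with exact 95% intervals. Trbv20 reaches 19.5% in Ccr7-type barcodes of C3 against 5.83% in Ccl5-type ones and 1.69% in Ccr7-type barcodes of C4.

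Cd4-only barcodes with a UMI of Foxp3, the defining factor of regulatory T cells, numbered 6, 43, 57 and 116 assigned in C1 to C4. No member had intervals apart between Cd4-only barcodes with and without Foxp3 in a library with at least 20 of the former. Trbv13-2 held 6.03% (2.46 to 12.0%) of those with Foxp3 in C4 and 10.5% (9.03 to 12.2%) of those without. Invariant natural killer T cells pair Trav11 with few V beta genes. Trav11 or Trav11d was the leading Trav gene in 1 barcode of C1 and 1 of C4. Only 51.8% of T barcodes in C1 and 74.8 to 76.6% in C2 to C4 had a leading Trav gene. How reads that match several Trav genes were counted is not known here. These counts therefore do not show how many such cells were present.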

How the data were processed

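The authors deposited 4 matrices of whole-number UMI counts per gene and barcode, not normalized and not restricted to cells. The matrices come from Cell Ranger 4, per the file headers, while the submitters' processing notes name Cell Ranger 6.1.2, STAR 2.7.10a and mm10. The series' design text names 10x and the labels' protocols name BD Rhapsody, and the barcodes have 16 bases. How reads matching several Trbv genes were counted was not stated. Gland tissue was digested with collagenase and node tissue triturated, per the labels' protocols.

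Total depth was 37902916 to 77819179 UMIs per library, and 5067 to 8532 barcodes per library passed the filters, at median depths of 4939 to 8076 UMIs. A tie for the most UMIs left a barcode unassigned (20, 55, 151 and 95 barcodes in C1 to C4). Cd8-only barcodes held a Cd8a or Cd8b1 UMI and no Cd4 UMI. Doublets were not removed. Over all pairs of libraries 109 T barcodes were shared, of which 92 were assigned in both and 5 to the same gene. Levels over all genes were compared only for genes with at least 50 UMIs over the 2 classes together, or at least 100 in the highest library, per 1000000 UMIs.

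Genes named were the 8 with the highest median share, up to 6 with 1 direction between co-receptor classes in all libraries, up to 4 per class with the widest spread over libraries and at least 20 barcodes in the highest, and 3 each with most and fewest UMIs per assigned barcode. For the spread, a count of 0 was set to 3. Members and lists were chosen with earlier results of these data known. Gene positions and classes came from the RefSeq table for GRCm38.p6. The assignment was run on simulated barcodes with free RNA and second genes added at random. These held no reads shared between members of a family, so the run cannot judge that error. Python 3.11.15, numpy 2.4.6, pandas 2.3.3, scipy 1.17.1 and matplotlib 3.10.9 were used.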

Additional observations from a re-analysis of the deposited data

How the results depend on the processing

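Trbv12-1, Trbv12-2, Trbv14, Trbv17 and Trbv29 stayed higher in Cd8-only barcodes and Trbv2 in Cd4-only barcodes in 4 of 4 libraries under each of the 16 alternatives run. Trbv13-2 did so in 14 of 16, Trbv19 in 13 and Trbv1 in 8, with at least 3 libraries in the others. No direction held by all libraries was reversed in the median. The chance that 2 barcodes share a gene is measured over pairs, so an exact interval on a share cannot judge its moves. For Cd4-only barcodes its lowest and highest values over the alternatives were 6.66 and 7.17% in C1 and 6.55 and 7.65% in C2. They were 6.37 and 7.12% in C3 and 6.41 and 7.25% in C4. For Cd8-only barcodes they were 7.34 and 8.16% in C1 and 6.02 and 6.87% in C2. In C3 they were 5.33 and 6.27%, and in C4 5.61 and 6.18%. The 5.33% came without repeated Trbv and Trav combinations, which leaves 2757 of 5256 barcodes.

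The assigned share moved most. With at least 3 Cd3 UMIs it was 70.1% in C1 and 94.5% in C2, with at most 5% mitochondrial UMIs 94.3% in C2, and with at least 2 UMIs of the assigned gene 59.7%, 88.9%, 92.2% and 91.4% in C1 to C4. With barcodes of a single Trbv gene it was 45.5%, 61.2%, 62.2% and 56.1%, and thinned to 2000 UMIs 55.5%, 87.3%, 78.8% and 83.7%, after 22, 188, 95 and 46 shallower T barcodes were left out. Thinned, 58.1%, 90.2%, 82.0% and 88.1% held a Trbv UMI, against 68.5%, 96.7%, 98.1% and 97.1% unthinned, so C3 no longer lay above C2 and C4. Without Trdc barcodes it was 69.5% in C1 and 95.8% in C4, and without Ncr1 barcodes 85.2% in C1 and 94.2% in C2.

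Leading genes moved too. With barcodes of a single Trbv gene, Cd4-only Trbv19 was 6.07% in C1, behind Trbv2, and Trbv5 13.0% in C3, and Cd8-only Trbv3 was 12.3% in C2 and Trbv13-2 9.22% in C3, behind Trbv12-2. Thinned, Cd8-only Trbv13-2 was 8.70% in C3, behind Trbv16. In UMIs, Cd8-only Trbv3 was 11.8% in C2 and Trbv13-2 7.59% in C3 and 7.35% in C4, both behind Trbv16, and Cd4-only Trbv13-2 was 12.2% in C2 and 8.64% in C4, behind Trbv1, and Trbv5 8.67% in C3, behind Trbv3. Without repeated combinations, Cd4-only Trbv19 was 6.92% in C1, behind Trbv5, and Trbv13-2 10.4% in C2 and 8.50% in C4, behind Trbv1, and Cd8-only Trbv3 was 12.4% in C2 and Trbv13-2 7.69% in C3. This alternative left out 22.8%, 27.7%, 15.7% and 25.2% of Cd4-only barcodes with both genes in C1 to C4. Of Cd8-only barcodes with both genes it left out 20.1%, 63.1%, 62.9% and 6.52%. Cd4-only barcodes of C4 had a ratio to free combination of 0.986. Reaching 5 barcodes there thus does not mark a repeat beyond free combination. The cause of the shifts was not tested. With 258 and 312 assigned barcodes, C1 has the widest intervals. No paired analysis was possible because the libraries carry no replicate number and no group has a second sample.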
